A study of Mus musculus with 18 samples.

Results

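The interferon-stimulated genes are a set of 37 mouse genes, chosen by name as antiviral effectors, sensors, GTPases and regulators of the interferon response together with both chains of the type I interferon receptor. Of the 37 genes, 33 had at least 1 Affymetrix probe set that the platform annotation pairs with that gene alone, 49 probe sets in all out of 36701. Of these, the 36 probe sets that reached a signal of 60 in 2 or more of the 6 samples were tested, which covers 26 genes out of 12193 with a tested probe set. Oas1a, Zbp1, Ifi44 and Tgtp1 had no such probe set and were not analysed here.

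Transcript levels were measured in mouse spleen cells of 3 populations with 2 separately prepared samples each. They were IKDC, labelled as interferon-producing killer dendritic cells, plasmacytoid dendritic cells (PDC), and cDC, the conventional dendritic cells that the design used as control. Every sample was hybridised to 3 array types (U74A, U74B and U74C), so levels of different probe sets are not compared. Where a gene's level is given without an array type it is from U74A. The exceptions are Oasl1, Bst2, Cd274 and Ms4a4b, from U74B, and Irf7, from U74C. Sums of markers add probe sets of different array types. No stimulation, infection or interferon treatment is described in the labels for any population. The strain, genotype and age of the mice, the sort, and whether the 2 samples of a population came from separate mice are not given in the sources used here, so the p-values measure only the spread between these samples, which may be technical.

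Type I interferons are secreted proteins that bind a receptor made of the chains IFNAR1 and IFNAR2, whose signal ends at a promoter sequence called the interferon-stimulated response element (ISRE). Interferon gamma uses another receptor and acts through a sequence called the gamma-activated site (GAS). The genes so induced encode proteins that detect viral RNA or DNA, block viral entry and replication, or dampen the response. Plasmacytoid dendritic cells are known for large-scale type I interferon production, IKDC were described as cells with features of both natural killer and dendritic cells, and conventional dendritic cells for presenting antigen to T cells.

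The labels were set against lists of cell type markers. The summed signals of 9 measured natural killer (NK) cell markers were 50880 and 56370 in IKDC, 5460 and 4026 in PDC, and 3306 and 4285 in cDC. The 10 plasmacytoid markers summed to 1915 and 1797 in IKDC, 32960 and 32450 in PDC, and 1772 and 1736 in cDC. The 10 conventional dendritic cell markers summed to 6273 and 4785 in IKDC, 24650 and 23660 in PDC, and 49810 and 42750 in cDC. Of these markers, 3 were under a signal of 60 in each IKDC sample, 3 and 4 in the PDC samples and none in the cDC samples. The largest part of the PDC sum was H2-Aa, at 13850 and 10970. In the test described below, 4 of the 10 were lower in IKDC than in PDC and 1, Itgax, was higher. Itgax had 1249 and 1359 in IKDC, 238.4 and 338.7 in PDC, and 1556 and 2614 in cDC. Median signals per array were 51.7 to 87.3, and the signal of the Gapdh control was 2.97 to 6 times higher at its 3' end than at its 5' end, a ratio that rises with RNA shortening. On U74A the ratio was 3.34 and 3.59 in IKDC, 6 and 3.19 in PDC, and 4.74 and 4.13 in cDC. Both IKDC samples lay below both cDC samples on all 3 array types, PDC replicate 1 stood apart on U74A, and the part of this ratio in the results was not tested.

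The regulatory sequence of the set was read from RefSeq promoters of build GRCm38.p6, each running from 250 bases before to 50 bases after an annotated transcription start, with the first transcribed base as position 1. A promoter entry was found for 31 of the 37 genes, and none for Mx1, Mx2, Usp18, Iigp1, Zbp1 and Ifi204. The ISRE letters, a pair of GAAA runs with any 2 bases between them on either strand, stood in the promoters of 16 of the 31 genes (51.6%), and in those of 1079 of 27025 genes of the whole promoter table (3.99%). The GAS letters TTCNNNGAA, the same on both strands, stood in 11 of 31 (35.5%), against 2582 of 27025 (9.55%). The set was chosen as known interferon targets, so these shares describe the list and are no result about the 3 populations. Promoters are printed below for the genes that passed the test in at least 1 comparison and hold an ISRE match, since they show where the motif lies in genes that differed in opposite directions. Letters in capitals are ISRE matches on either strand (on the opposite strand the runs read TTTC) and, in Ifitm3, a GAS match that overlaps the second ISRE match. Ifitm3 lies on the minus strand at chr7:141010695-141010994, Ifih1 on the minus strand at chr2:62646206-62646505, Ddx58 on the minus strand at chr4:40239776-40240075, Gbp2 on the plus strand at chr3:142620413-142620712, and the first of 2 annotated starts of Gbp3 on the plus strand at chr3:142559794-142560093.
Ifitm3: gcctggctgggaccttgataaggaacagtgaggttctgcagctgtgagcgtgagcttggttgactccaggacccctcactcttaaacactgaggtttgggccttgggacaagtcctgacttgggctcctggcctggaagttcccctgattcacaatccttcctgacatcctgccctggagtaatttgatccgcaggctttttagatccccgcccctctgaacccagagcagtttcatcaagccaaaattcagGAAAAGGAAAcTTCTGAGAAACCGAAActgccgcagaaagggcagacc
Ifih1: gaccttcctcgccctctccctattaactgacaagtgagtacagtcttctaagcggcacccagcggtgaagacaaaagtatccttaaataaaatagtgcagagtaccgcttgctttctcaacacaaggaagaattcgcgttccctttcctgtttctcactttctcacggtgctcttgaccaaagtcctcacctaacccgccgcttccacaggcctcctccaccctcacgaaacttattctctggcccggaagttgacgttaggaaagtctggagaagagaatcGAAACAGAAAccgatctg
Ddx58: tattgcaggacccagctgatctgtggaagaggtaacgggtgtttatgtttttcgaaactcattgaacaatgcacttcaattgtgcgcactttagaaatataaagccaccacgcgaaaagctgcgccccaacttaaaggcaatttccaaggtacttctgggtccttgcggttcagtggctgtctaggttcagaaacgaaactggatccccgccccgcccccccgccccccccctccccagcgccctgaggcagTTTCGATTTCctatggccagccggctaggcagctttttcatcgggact
Gbp2: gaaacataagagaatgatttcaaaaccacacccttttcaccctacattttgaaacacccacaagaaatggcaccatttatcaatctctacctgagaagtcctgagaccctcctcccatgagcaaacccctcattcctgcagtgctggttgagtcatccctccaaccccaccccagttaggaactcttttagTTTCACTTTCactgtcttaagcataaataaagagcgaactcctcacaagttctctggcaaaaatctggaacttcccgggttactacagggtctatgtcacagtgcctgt
Gbp3: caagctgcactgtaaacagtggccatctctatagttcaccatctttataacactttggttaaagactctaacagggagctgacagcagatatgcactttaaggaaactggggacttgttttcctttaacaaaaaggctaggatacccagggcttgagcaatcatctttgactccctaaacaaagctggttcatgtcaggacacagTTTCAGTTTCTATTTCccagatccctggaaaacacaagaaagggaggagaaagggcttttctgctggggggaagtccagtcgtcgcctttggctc

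In these windows the ISRE matches began at positions 3 and 20 in Ifitm3, 33 in Ifih1, 3 in Ddx58, -59 in Gbp2, and -45 and -39, overlapping each other, in Gbp3. The GAS match of Ifitm3 began at position 14. The ISRE letters were not found in the windows of Ifnar2, Trim25, Oasl2 and Ifi47, which also passed the test in some comparison. Mx1 passed as well, but had no promoter entry to read. Ifnar2 had a GAS match at -214. A match is a description of the letters and not of a bound site.

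**Figure D1:**
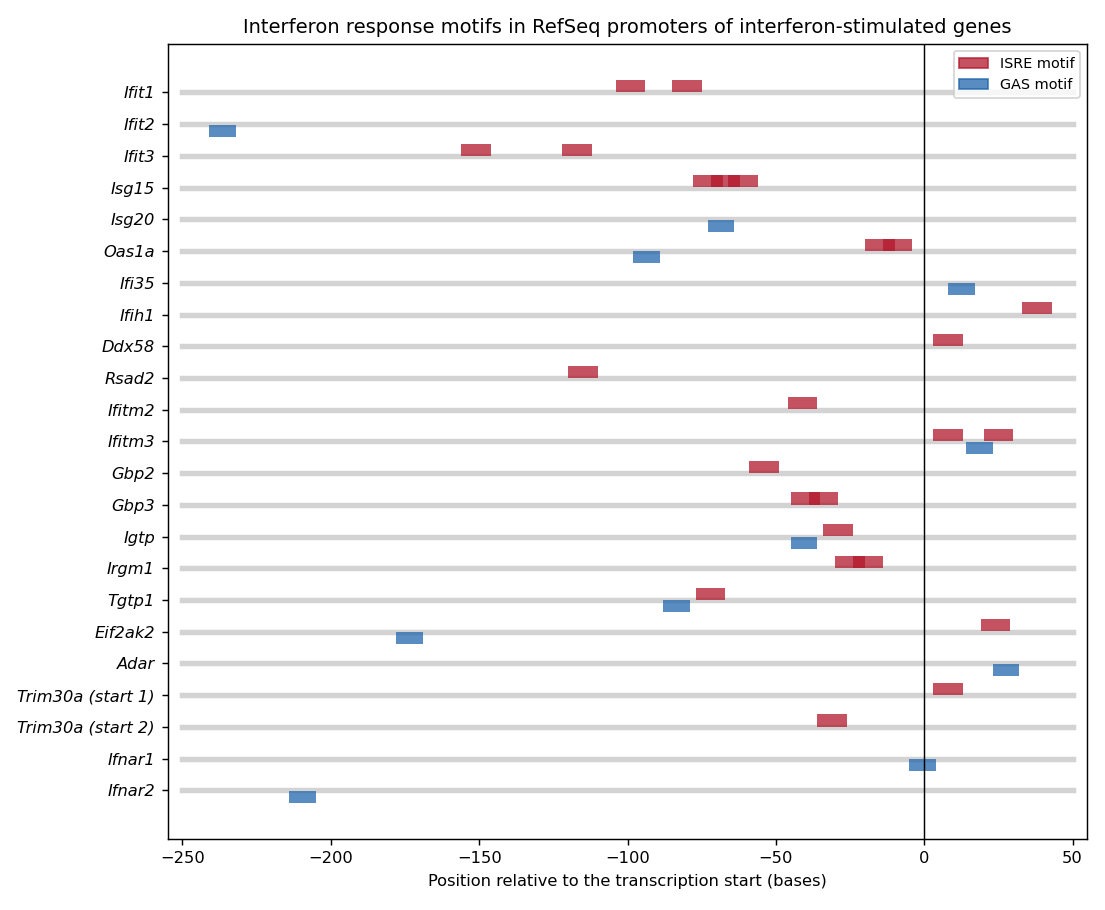
Positions of ISRE matches (red, above the line) and GAS matches (blue, below the line) in the RefSeq promoters (grey lines) of the interferon-stimulated genes that hold at least 1 match. The horizontal axis gives the position in bases from the transcription start, and darker stretches are overlapping matches, as in Gbp3 at -45 and -39.

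In the comparison of IKDC with cDC, 6 of the 26 genes passed the test (limma, adjusted p of 0.05 or less over all 23285 tested probe sets). Ddx58, Gbp2, Gbp3 and Ifi47 were higher in IKDC, and Ifih1 and Ifitm3 were lower. By probe set, 6 of 36 passed (16.7%), against 5.6% of all tested probe sets, of which 2.68% were higher and 2.92% lower in IKDC. By gene, 23.1% of the set passed, against 7.57% of all genes, each represented by its tested probe set of highest mean signal. An unadjusted p under 0.05 was reached by 15 of the 36 probe sets, and by 4411 of all 23285. The median difference of the 36 probe sets, in log2(signal + 16), was 0.26, against -0.01 over all probe sets. Single probe sets ran from -3.38 to 2.51. In these bulk samples, fewer cells of a type and less RNA per cell cannot be told apart.

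In the comparison of PDC with cDC, 6 of the 26 genes also passed. Ifnar2, Oasl2, Trim25 and Ifi47 were higher in PDC, and Ifih1 and Ifitm3 were lower. These were 6 of 36 probe sets, against 3.65% of all tested probe sets, 1.73% higher and 1.92% lower in PDC. Over all genes 4.99% passed. The median difference of the 36 probe sets was 0.42, against -0.01 over all probe sets.

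In the comparison of IKDC with PDC, 5 of the 26 genes passed. Ddx58, Gbp2 and Gbp3 were higher in IKDC, and Mx1 and Trim25 were lower. They were 5 of 36 probe sets (13.9%), against 4.45% of all tested probe sets, 2.06% higher and 2.39% lower in IKDC. By gene, 19.2% passed, against 5.88% of all genes. The median difference was -0.29 over the 36 probe sets, against -0.02 over all probe sets. The 3 comparisons share samples, so a gene that stands apart in 1 population appears in 2 of them. Of the 26 genes, 7 passed in 2 comparisons, 3 passed in 1, 16 passed in none and none passed in all 3. The 7 include Gbp2 and the 3 include Oasl2, each tested only through the population where it was high. These counts were not made over all genes, so they are no result about the set.

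No population held the highest level across the set. By the representative probe sets, the highest mean signal was found in IKDC for 10 of the 26 genes, in PDC for 9 and in cDC for 7. Other tested probe sets, among them those of Ifnar1, Ifih1 and Adar, placed it in another population. The shares over all genes were not counted for these 3 numbers. Both IKDC samples lay above the 4 others for 5 genes (Isg20, Ddx58, Gbp2, Gbp3 and Ifnar1), 19.2% of the set, against 14.2% of all genes. Both PDC samples did for 6 (Mx2, Oasl1, Oasl2, Igtp, Trim25 and Ifnar2), 23.1% against 9.35%, and both cDC samples for Ifih1 and Ifitm3, 7.69% against 12.5%. At the low end, both IKDC samples lay below the 4 others for 9 genes (Isg15, Mx1, Mx2, Ifi35, Ifih1, Usp18, Ifitm3, Adar and Trim30a), 34.6% of the set, against 12.3% of all genes. Both cDC samples did for 8 (Isg20, Oasl2, Gbp3, Igtp, Ifi47, Trim25, Ifi204 and Sp100), 30.8% against 11.9%. Both PDC samples did for Ddx58 alone, 3.85% against 8.84%. These counts use no test. The median gap between the 2 samples of a population was 0.32 in IKDC, 0.41 in PDC and 0.40 in cDC on the log2 scale.

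**Figure D2:**
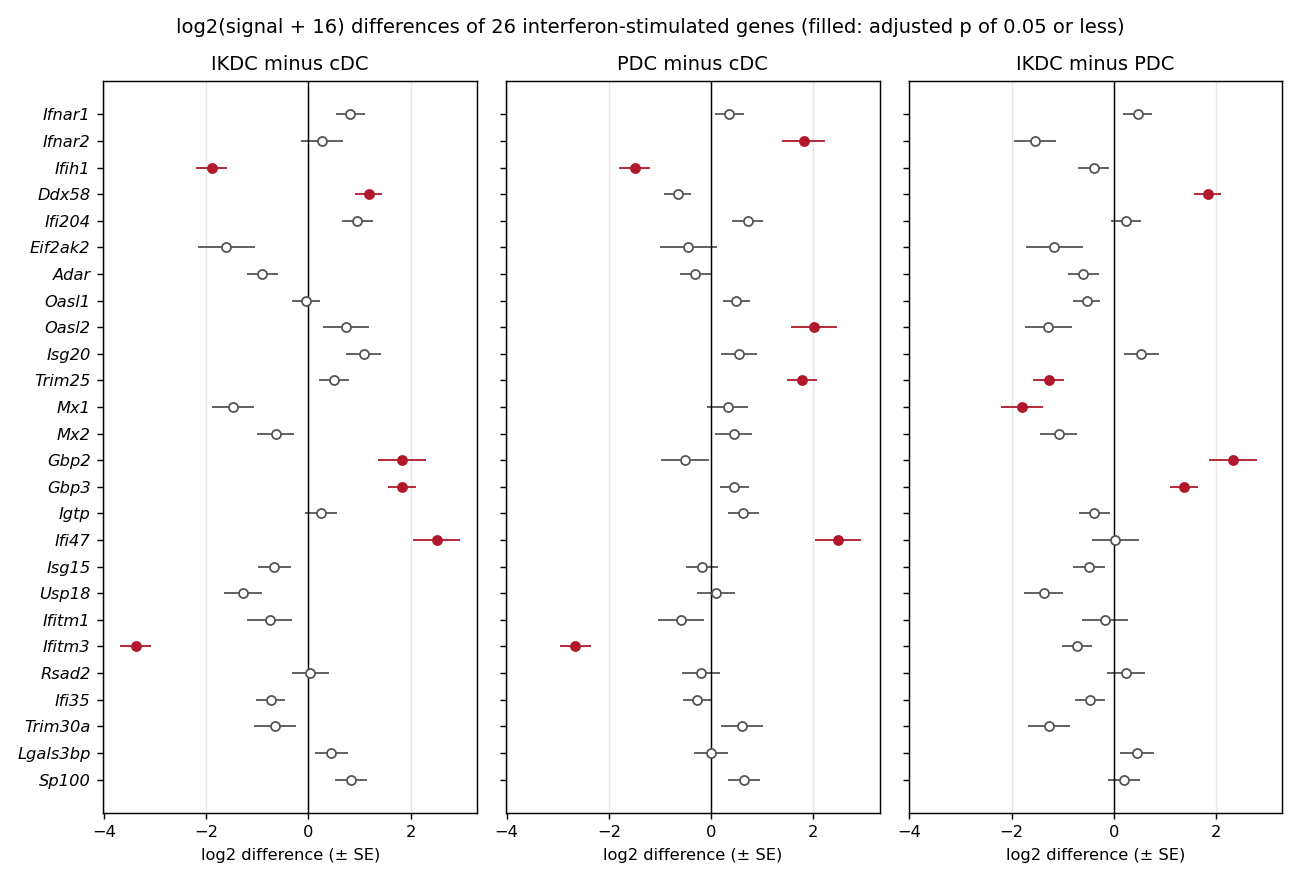
Differences in log2(signal + 16) (horizontal axes) of the 26 tested genes, ordered by role, for IKDC minus cDC, PDC minus cDC and IKDC minus PDC. Points are fitted differences, bars are standard errors (n = 2 samples per population), and filled red points have an adjusted p of 0.05 or less. Ifitm3 has the lowest points of the first 2 panels, at -3.38 and -2.66. The differences of Gbp2, Oasl2 and Mx1 rest on signals under 60 in a population.

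Among the receptor chains, Ifnar2, the chain that binds type I interferon most tightly, was higher in PDC than in cDC. Its U74A signals were 336.3 and 472.3 in IKDC, 808.1 and 1753 in PDC, and 226.7 and 473.5 in cDC. Both PDC samples lay above all others, while IKDC and cDC overlapped. The difference was 1.81 ± 0.42 (SE) for PDC minus cDC (limma, adjusted p = 0.0371) and -1.54 ± 0.42 for IKDC minus PDC (adjusted p = 0.0690). A second Ifnar2 probe set gave 163.9 and 399.3 in PDC, against 56.4 and 85.8 in cDC, and a difference of 1.67 ± 0.41 that just missed the threshold. Over 17 alternative settings the adjusted p for PDC minus cDC ran from 0.000574 to 0.277. The call ended without PDC replicate 2 (0.207) or cDC replicate 1 (0.277), with quantile normalization, median centring, no intensity trend, or the mean of the gene's probe sets.

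Ifnar1, the other chain and a close neighbour of Ifnar2 on chromosome 16 with 1 protein-coding gene between them, passed in no comparison, and its 2 probe sets ordered the populations differently. On U74C its signals were 1657 and 1691 in IKDC, 1016 and 1431 in PDC, and 799.2 and 1109 in cDC. On U74A they were 98.3 and 148.9 in IKDC, 212.7 and 283.9 in PDC, and 133.5 and 123.8 in cDC. The highest level was thus in IKDC by 1 probe set and in PDC by the other.

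Of the 11 nucleic acid sensors and RNA-directed effectors, 9 were tested. Ddx58 and Ifih1, which encode cytosolic RNA sensors, were highest in different populations by their representative probe sets. Ddx58, which encodes the sensor RIG-I for RNA with a 5' triphosphate, was highest in IKDC, and Ifih1, which encodes the long double-stranded RNA sensor MDA5, was highest in cDC by its representative probe set. Ddx58 signals on U74B were 1110 and 918.4 in IKDC, 277.7 and 265 in PDC, and 363.2 and 525.2 in cDC. Both IKDC samples lay above all others, and the PDC samples below. The difference was 1.84 ± 0.27 for IKDC minus PDC (adjusted p = 0.00343) and passed under all 17 alternatives. For IKDC minus cDC it was 1.18 ± 0.27 (adjusted p = 0.0329), with adjusted p of 0.0210 to 0.232 over the alternatives. That call ended without IKDC replicate 1 (0.232) or 2 (0.116), without cDC replicate 1 (0.214) or 2 (0.0593), with median centring and with no intensity trend.

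Ifih1 signals on U74A were 81.5 and 117.6 in IKDC, 148.9 and 120.6 in PDC, and 433.1 and 384.4 in cDC. Both cDC samples were above the other 4 without overlap, and IKDC minus PDC was -0.40 ± 0.31 (adjusted p = 0.641). The difference was -1.89 ± 0.31 for IKDC minus cDC (adjusted p = 0.00359) and -1.50 ± 0.31 for PDC minus cDC (adjusted p = 0.0201). A second Ifih1 probe set, on U74C, gave 187.3 and 165.4 in IKDC, 142 and 143.9 in PDC, and 38.3 and 189.9 in cDC. There the cDC samples spanned all others, the differences had the opposite sign (0.86 ± 0.63 and 0.59 ± 0.63) and neither passed, with adjusted p of 0.516 and 0.768. The direction for Ifih1 therefore rests on 1 of 2 probe sets.

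The adjusted p of Ifih1 ran from 0.000793 to 0.453 over the alternatives for IKDC minus cDC, where the call ended without IKDC replicate 1 (0.0620) and with the mean of both probe sets (0.453). It ran from 0.00906 to 0.615 for PDC minus cDC, where the call ended without PDC replicate 2 (0.0771), cDC replicate 1 (0.148) or cDC replicate 2 (0.107) and with the mean of both probe sets (0.615).

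Trim25, which encodes a ubiquitin ligase linked to RIG-I signalling, was highest in PDC. Its U74A signals were 216.5 and 260.6 in IKDC, 513.1 and 698.9 in PDC, and 183.6 and 145.3 in cDC. The 3 populations did not overlap, although the difference between IKDC and cDC missed the threshold (0.50 ± 0.30, adjusted p = 0.408). PDC exceeded cDC by 1.78 ± 0.30 (adjusted p = 0.00628, 0.00125 to 0.0690 over the alternatives), a call that ended only without cDC replicate 2 (0.0690). IKDC minus PDC was -1.28 ± 0.30 (adjusted p = 0.0322, 0.0175 to 0.268 over the alternatives). That call ended without IKDC replicate 1 (0.268) or 2 (0.151), without PDC replicate 2 (0.115), with median centring and with no intensity trend.

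Oasl2, a member of the 2'-5' oligoadenylate synthetase family, was also higher in PDC than in cDC. Its U74B signals were 56.9 and 56.1 in IKDC, 173.1 and 147.7 in PDC, and 28.7 and 26.4 in cDC. Oasl2 reached 60 in PDC alone and met the minimum for testing only through that population. With both cDC samples under 60 the difference is a bound, at least 2.67-fold higher in PDC than in cDC (fitted difference 2.02 ± 0.46, adjusted p = 0.0422). Unspiked bacterial control probe sets reached 122.7 on U74B, so 60 is a weak bound there. The adjusted p ran from 0.0206 to 0.168 over 16 alternatives and the call ended under 11 of them, among them the omission of any 1 of the 6 samples: IKDC replicate 1 (0.0776) or 2 (0.0769), PDC replicate 1 (0.151) or 2 (0.129), and cDC replicate 1 (0.147) or 2 (0.168). Oasl1, its direct neighbour on chromosome 5, had 442.7 and 461.4 in IKDC, 628.7 and 696.1 in PDC, and 574.5 and 376 in cDC, and passed in no comparison.

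The other 5 tested genes of this role passed in no comparison. Isg20, an exonuclease that degrades RNA, had 151.7 and 282.8 in IKDC, 147.7 and 128.6 in PDC, and 89.6 in each cDC sample, with both IKDC samples highest and a difference of 1.08 ± 0.35 for IKDC minus cDC (adjusted p = 0.106). Eif2ak2, the kinase PKR that halts translation on double-stranded RNA, had 41.3 and 145 in IKDC, 122 and 318.1 in PDC, and 321.6 and 238.3 in cDC on U74B. IKDC lay below cDC without overlap and PDC overlapped both, with IKDC minus cDC at -1.61 ± 0.56 (adjusted p = 0.148). Ifi204, a DNA-binding protein of a family of near-identical genes whose signals may not be separable, ranged from 284.6 to 667 by its brighter probe set. Adar, the enzyme that converts adenosine to inosine in double-stranded RNA, had 3 tested probe sets with different orders. They gave differences of 0.25, -0.90 and 0.08 for IKDC minus cDC, and of 0.44, -0.31 and 1.62 for PDC minus cDC, on U74A, U74B and U74C in turn.

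**Figure D3:**
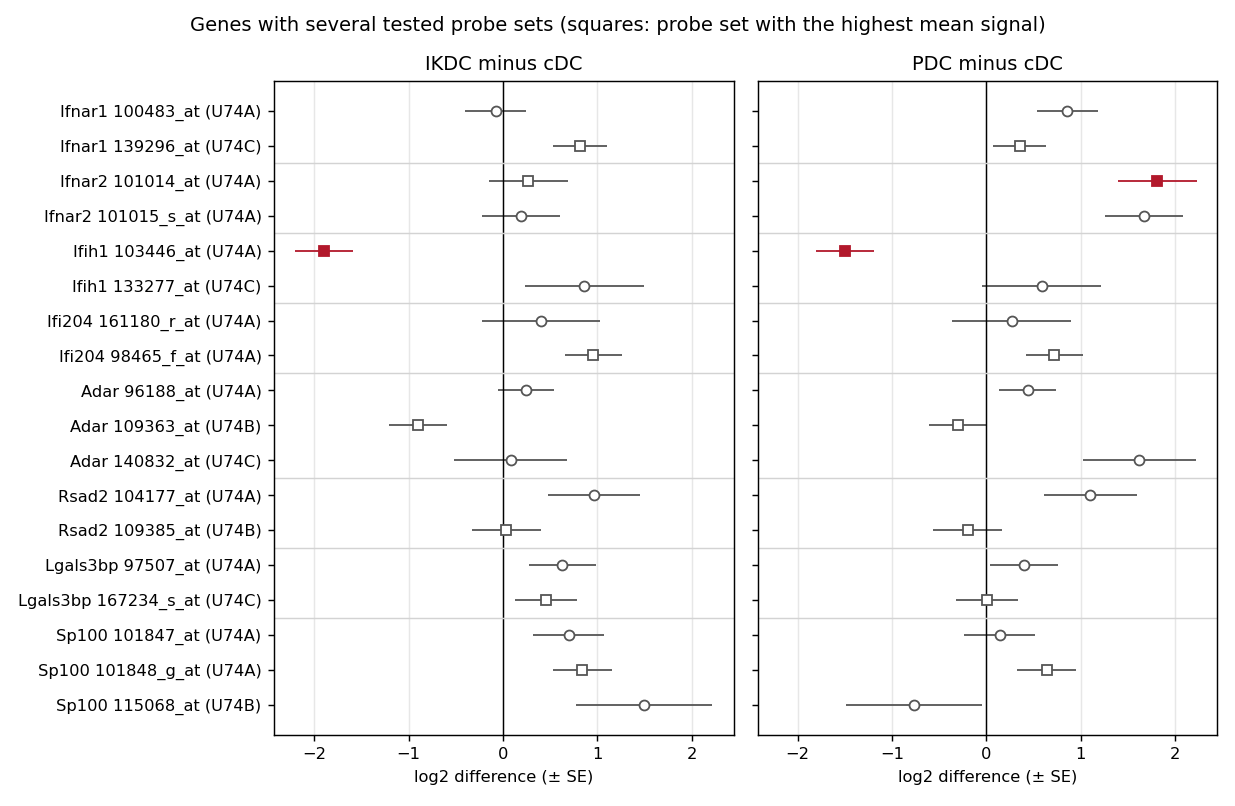
Differences in log2(signal + 16) (horizontal axes) for the 8 genes with more than 1 tested probe set, for IKDC minus cDC and PDC minus cDC. Squares mark the probe set of highest mean signal, circles the others, bars are standard errors (n = 2 samples per population), and filled red marks have an adjusted p of 0.05 or less. The 2 probe sets of Ifih1 lie on opposite sides of 0 in both panels, and those of Ifnar2 lie close together, at 1.81 and 1.67 for PDC minus cDC.

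The IFIT proteins, which bind foreign RNA and block its translation, could not be compared, because none of Ifit1, Ifit2 and Ifit3 reached 60 on 2 samples. Their signals were 3.3 to 11.5 for Ifit1, 10.3 to 58.3 for Ifit2 and 3.4 to 67.4 for Ifit3 over the 6 samples. Of these 18 values, a single one, Ifit3 in cDC replicate 2, was above 60. This leaves the levels unknown below that signal and shows no absence of the transcripts.

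Of the 9 GTPases of the dynamin-like, guanylate-binding and immunity-related families, which act on viruses and on the vacuoles of intracellular microbes, 6 were tested. The guanylate-binding genes Gbp2 and Gbp3, with 1 protein-coding gene between them on chromosome 3, were both highest in IKDC. Gbp3 signals were 541.9 and 535.5 in IKDC, 213.2 and 185.3 in PDC, and 133.8 and 147.2 in cDC. No population overlapped another. The difference was 1.83 ± 0.28 for IKDC minus cDC (adjusted p = 0.00234), which passed under all 17 alternatives, and 1.37 ± 0.28 for IKDC minus PDC (adjusted p = 0.0156, 0.00852 to 0.158 over the alternatives). The call against PDC ended without IKDC replicate 1 (0.158), IKDC replicate 2 (0.156) or PDC replicate 2 (0.0529).

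Gbp2 signals were 141.3 to 154.6 in IKDC, 11.9 to 21.7 in PDC and 17.2 to 48.2 in cDC. Gbp2 was thus above 60 in the IKDC samples alone, and met the minimum for testing only through them. It was at least 2.46-fold higher in IKDC than in PDC or in cDC. The fitted differences were 2.34 ± 0.47 against PDC (adjusted p = 0.0154) and 1.83 ± 0.47 against cDC (adjusted p = 0.0465). The call against PDC ended without IKDC replicate 1 (0.199) or 2 (0.171), in a range of 0.00398 to 0.199. The call against cDC ended under 8 of 16 alternatives, in a range of 0.0185 to 0.327, including the omission of IKDC replicate 1 (0.327) or 2 (0.283) and of cDC replicate 1 (0.268) or 2 (0.0670). A second Gbp2 probe set, on U74C, reached 60 in IKDC replicate 1 alone (102.8) and was not tested. The NK marker sums given above were also highest in IKDC, and their part in the levels of Ddx58, Gbp2 and Gbp3 was not tested.

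Ifi47, an immunity-related GTPase, was higher in both IKDC and PDC than in cDC. Its U74A signals were 404.3 and 780.8 in IKDC, 395.7 and 767.4 in PDC, and 51.6 and 136.5 in cDC. The IKDC and PDC samples covered the same range and both cDC samples lay below it. The difference was 2.51 ± 0.46 for IKDC minus cDC (adjusted p = 0.00719), 2.48 ± 0.46 for PDC minus cDC (adjusted p = 0.0107) and 0.03 ± 0.46 for IKDC minus PDC (adjusted p = 0.991). The first call ended without IKDC replicate 2 (0.0827) or cDC replicate 1 (0.0805), with adjusted p of 9.07e-06 to 0.0827 over the alternatives. The call for PDC minus cDC ended without PDC replicate 2 (0.0874) or cDC replicate 1 (0.110), with adjusted p of 1.69e-05 to 0.110. Erythroid markers had the same order, with summed signals over 3 of 5 markers of 14210 and 16770 in IKDC, 22260 and 9365 in PDC, and 671.9 and 1661 in cDC. So did B and plasma cell markers in their sum, 5 of 6 measured, with 8118 and 5274 in IKDC, 8070 and 3477 in PDC, and 786.6 and 724.5 in cDC. In IKDC and PDC this sum was mostly Igha, at 5909 and 4205 in IKDC and 6474 and 2614 in PDC. Against cDC, only Igha and Jchain of these markers passed, as higher in both populations. Ms4a1 had 299.3 and 97.3 in PDC, against 287.4 and 196.9 in cDC. The part of either marker list in the result was not tested.

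Mx1, a dynamin-like GTPase that restricts influenza virus and is disrupted in many laboratory mouse strains, was lower in IKDC than in PDC. Its U74A signals were 23.2 to 26.5 in IKDC, 86.7 to 179.5 in PDC and 93.8 to 100.9 in cDC. Both IKDC samples lay below the other 4 and under 60, so the level was at least 2.08-fold lower in IKDC than in PDC (fitted difference -1.80 ± 0.41, adjusted p = 0.0291). Against cDC the difference was -1.47 ± 0.41 (adjusted p = 0.0622). The call against PDC ended under 10 of 16 alternatives, in a range of 0.0102 to 0.175, including the omission of IKDC replicate 1 (0.175) or 2 (0.147), PDC replicate 2 (0.124), and cDC replicate 1 (0.0540) or 2 (0.0579).

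The related Mx2 had 63.2 and 37.4 in IKDC, 118.3 and 125.1 in PDC, and 90 and 80.2 in cDC, and passed in no comparison. Igtp, an immunity-related GTPase, had 101.9 to 205.2 over the 6 samples and passed in none. Irgm1 (27.8 to 99.5) and both probe sets of Iigp1 (6.3 to 60.5 and 7.1 to 82.5) were too dim to test. Of the 6 tested GTPases, 3 thus passed as higher and none as lower in IKDC than in cDC, where 7.57% of all genes passed, although both IKDC samples of Mx1 and of Mx2 lay below both cDC samples. In PDC against cDC 1 passed as higher (4.99% of all genes), and in IKDC against PDC 2 passed as higher and 1 as lower (5.88% of all genes).

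ISG15 is a ubiquitin-like protein that is attached to other proteins, and USP18 removes it and also damps receptor signalling. Neither gene passed in any comparison. Usp18 signals were 72.3 and 64.9 in IKDC, 175.1 and 234.7 in PDC, and 127.7 and 277.1 in cDC. Both IKDC samples were the lowest, with a difference of -1.37 ± 0.38 for IKDC minus PDC (adjusted p = 0.0724) and -1.28 ± 0.38 for IKDC minus cDC (adjusted p = 0.0796). Isg15 signals were 104.2 and 115.2 in IKDC, 167.6 and 152.2 in PDC, and 229.1 and 145.3 in cDC, again with IKDC lowest, and the difference for IKDC minus cDC was -0.66 ± 0.32 (adjusted p = 0.296).

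The interferon-induced transmembrane proteins block the fusion of virus with endosomal membranes, and their genes lie close together on chromosome 7. Ifitm3 was lower in IKDC and in PDC than in cDC. Its U74A signals were 65.5 and 91.8 in IKDC, 138 and 139.2 in PDC, and 1100 and 837.1 in cDC. Both cDC samples lay above the other 4 by a gap far wider than that between replicates. The difference was -3.38 ± 0.30 for IKDC minus cDC (adjusted p = 6.78e-05) and -2.66 ± 0.30 for PDC minus cDC (adjusted p = 0.000491), and both passed under all 17 alternatives. IKDC minus PDC was -0.72 ± 0.30 (adjusted p = 0.287).

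Ifitm1 had 86.9 and 33.9 in IKDC, 69.4 and 60.1 in PDC, and 142.7 and 76.8 in cDC, with no call. Ifitm2 (27.8 to 84) was not tested. Ifitm1 has no protein-coding gene between it and Ifitm3, and Ifitm2 has 1. Monocyte and macrophage markers had the same order as Ifitm3 in their sum, with signals over 6 of 7 markers of 461.4 and 382.9 in IKDC, 2097 and 2330 in PDC, and 4732 and 4484 in cDC. All 6 were above 60 in both cDC samples, 2 or 3 of them were under 60 in the IKDC samples and 2 in the PDC samples. The PDC sum was mostly Cd68, at 1336 and 1944 in PDC, against 806.1 and 845.5 in cDC. By contrast, Csf1r, Lyz2, Adgre1 and C1qa passed as lower in PDC than in cDC. Of these, Adgre1 and C1qa reached 60 in cDC alone and were tested only through cDC. Neutrophil markers, 4 of 5 measured, were also highest in cDC, with sums of 188.1 and 130.4 in IKDC, 557 and 121.4 in PDC, and 639.5 and 1546 in cDC. The part of these markers in the result was not tested.

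**Figure D4:**
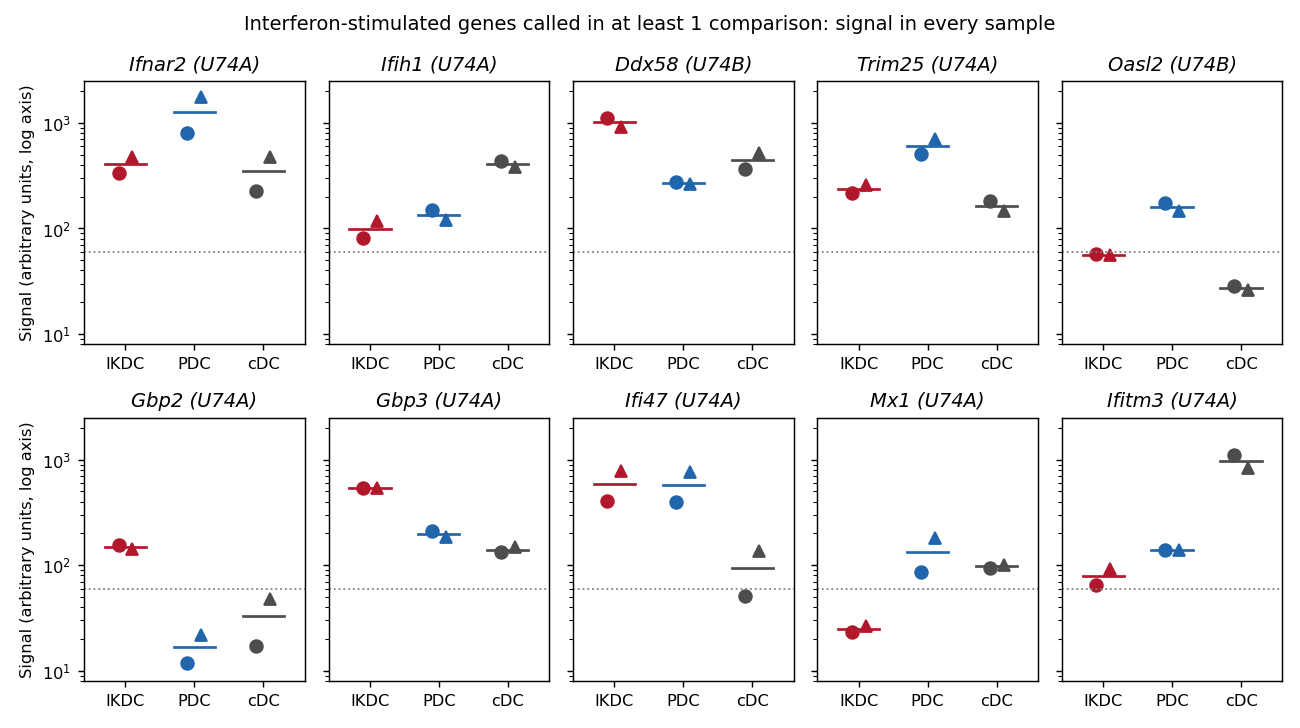
Signal of the 10 interferon-stimulated genes called in at least 1 comparison (vertical axes, log scale) in both samples of IKDC (red), PDC (blue) and cDC (grey), each from the probe set of highest mean signal. Circles are replicate 1, triangles replicate 2, lines the mean of both, and the dotted line the signal of 60. Ddx58, Gbp2 and Gbp3 are highest in IKDC, Ifnar2, Trim25 and Oasl2 in PDC, and Ifih1 and Ifitm3 in cDC, while Ifi47 covers the same range in IKDC and PDC and Mx1 is lowest in IKDC.

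The 5 other tested genes passed in no comparison. Rsad2, which encodes the antiviral enzyme viperin, had 267.8 and 542.7 in IKDC, 377.3 and 274.8 in PDC, and 443.1 and 311.8 in cDC on U74B, with all populations overlapping. By a dimmer U74A probe set it had 32.9 and 76.5 in IKDC, 49.2 and 67.8 in PDC, and 18.8 and 18.1 in cDC, with no call. Sp100, a component of nuclear bodies, had positive differences for IKDC minus cDC by all 3 probe sets, with adjusted p of 0.355, 0.169 and 0.304. For PDC minus cDC its U74B probe set had the opposite sign to the pair on U74A (-0.77, against 0.14 and 0.64).

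Lgals3bp, a secreted galectin-binding glycoprotein, ranged from 4188 to 9767 on U74C with overlapping populations. A dimmer U74A probe set had 179.1 and 310.2 in IKDC, 153.8 and 256.3 in PDC, and 163.2 and 132 in cDC. There both IKDC samples lay above both cDC samples, with no call. Ifi35, which encodes an interferon-induced leucine zipper protein, had 274.9 and 258.3 in IKDC, 443.4 and 315.8 in PDC, and 481.1 and 430.4 in cDC, with both IKDC samples lowest and no call (IKDC minus cDC -0.74 ± 0.28, adjusted p = 0.184). Trim30a, a tripartite motif protein, had 65 and 72.9 in IKDC, 119.9 and 290.3 in PDC, and 141.3 and 97.9 in cDC, with no call. Xaf1, linked to apoptosis, had 16.3 to 81.2 on U74C and was not tested.

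The rest of the pathway was read from 3 further lists. Of 21 interferon ligand genes, 4 were measured (Ifna5, Ifna9, Ifnab and Ifng). Ifng, which encodes interferon gamma, was the only 1 of these 4 to pass, at 229.1 and 177.4 in IKDC, 37.5 and 16.9 in PDC, and 38.9 and 36.8 in cDC, at least 3.36-fold higher in IKDC than in either (adjusted p = 0.00546 against PDC and 0.0132 against cDC). The call against PDC ended without IKDC replicate 1 (0.138) or 2 (0.0667), in a range of 0.000964 to 0.138. That against cDC ended without IKDC replicate 1 (0.210) or 2 (0.111) or cDC replicate 1 (0.0745) or 2 (0.0832), in a range of 0.00310 to 0.210.

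Of 28 genes of receptors, signal transduction and transcription factors, 26 were measured, Ifnar1 and Ifnar2 among them. In IKDC against cDC 3 were higher and 3 lower, where 7.57% of all genes passed. In PDC against cDC 3 were higher and none lower (4.99% of all genes), and in IKDC against PDC 3 were higher and 5 lower (5.88% of all genes). Their median difference in these comparisons was -0.04, 0.14 and -0.17, against 0.0126, -0.000446 and 0.00521 over all genes. The transcription factor Irf5 had 119.5 and 102.3 in IKDC, 301.5 and 426.6 in PDC, and 587.7 and 514 in cDC, and was lower in IKDC than in cDC (-2.16 ± 0.29, adjusted p = 0.00113). Irf7, the main activator of type I interferon genes, had 5748 and 7099 in IKDC, 18790 and 27390 in PDC, and 6494 and 7375 in cDC, and was 1.71 ± 0.25 higher in PDC than in cDC (adjusted p = 0.00364). Irf8 had 1668 and 1580 in IKDC, 8841 and 8504 in PDC, and 3710 and 3269 in cDC, with IKDC minus PDC at -2.41 ± 0.26 (adjusted p = 0.000247). The order was the other way for Stat4, a factor of the interleukin 12 pathway, at 1155 and 1197 in IKDC, 144.6 and 50.5 in PDC, and 122.4 and 83.3 in cDC (IKDC minus cDC 3.35 ± 0.40, adjusted p = 0.000465). Stat3 on U74C had 2003 and 2024 in IKDC, 837.4 and 842 in PDC, and 465.5 and 694.5 in cDC (IKDC minus cDC 1.80 ± 0.28, adjusted p = 0.00351), but by the mean of its probe sets that difference was 0.28.

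The call of Irf7 in PDC against cDC ended without PDC replicate 2 (0.0522) and with no intensity trend, in a range of 0.000651 to 0.107. The calls given for Irf5, Irf8 and Stat4 passed under all 17 alternatives, and that of Stat3 ended with no intensity trend and with the mean of its probe sets, in a range of 0.00146 to 0.605.

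Of 60 other interferon-stimulated genes, 50 were measured. In IKDC against cDC 3 were higher and 12 lower (7.57% of all genes passed). In PDC against cDC 2 were higher and 5 lower (4.99% of all genes), and in IKDC against PDC 4 were higher and 4 lower (5.88% of all genes). Both lower counts against cDC include Cxcl9 and Tlr3, which reached 60 in cDC alone and were tested only through cDC. Tlr3 on U74B had 455.7 and 483.7 in cDC. The medians of the 50 genes were -0.36, -0.31 and -0.09, against 0.0126, -0.000446 and 0.00521 over all genes. Those of the 26 genes were 0.14, 0.34 and -0.43, so in both comparisons with cDC the lists had medians of opposite sign. Bst2, which encodes the virus tether tetherin and is also among the plasmacytoid markers, had 317.6 and 348.8 in IKDC, 9570 and 6657 in PDC, and 609.3 and 466.8 in cDC (PDC minus cDC 3.86 ± 0.26, adjusted p = 6.20e-05). Cd274, the T cell inhibitory ligand PD-L1, had 217.1 and 128.9 in IKDC, 92.2 and 105 in PDC, and 1000 and 1273 in cDC (PDC minus cDC -3.32 ± 0.32, adjusted p = 0.000415). Ifi30, a lysosomal thiol reductase of antigen processing, had 336.3 and 102.4 in IKDC, 1266 and 1556 in PDC, and 2234 and 2500 in cDC (IKDC minus cDC -3.54 ± 0.42, adjusted p = 0.000467). The chemokine gene Cxcl9 was under 60 in IKDC and PDC, at 3.3 to 12, and was 316.5 and 317.5 in cDC, at least 5.28-fold lower in IKDC and in PDC than in cDC (adjusted p = 0.000496 and 0.000784). Ms4a4b had 9888 and 11390 in IKDC, 1340 and 469.8 in PDC, and 966.9 and 762.8 in cDC (IKDC minus PDC 3.71 ± 0.41, adjusted p = 0.000605). These calls passed under all 17 alternatives. Like Ifitm3 among the 26 genes, and Ifih1 by 1 of its 2 probe sets, Cd274 and Cxcl9 were lower in both IKDC and PDC than in cDC. Gbp6 of the same list passed as higher in both.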

How the data were processed

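Per the labels' protocols, total RNA was amplified in a pair of rounds, labelled and hybridised, and the authors read each array with GCOS 1.1.1 and scaled it to a target of 150. The submitters' processing notes name MAS 5. The deposited intensities are linear, and a difference is relative to each array's mean level. Amplification favours 3' ends.

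Control probe sets were left out. Those reaching 60 in 2 or more of the 6 samples were tested as log2(signal + 16), a scale that understates changes of dim genes, with limma 3.58.1 in R 4.3.3 (lmFit, eBayes with an intensity trend, all 3 populations in 1 model per array type), adjusted by Benjamini-Hochberg over all array types at 0.05. A gene is represented by its tested probe set of highest mean signal. Where both samples of a population were under 60, the fold is a bound: the brighter population's geometric mean, with signals under 60 set to 60, over 60. Gbp2, Oasl2, Ifng, Cxcl9, Tlr3, Adgre1 and C1qa reached 60 in 1 population alone. They were thus tested only through the population where they were high. The counts of passing genes include Gbp2 and Oasl2, and those of the further lists include Ifng, Cxcl9 and Tlr3. The fit was also run on simulated data with the same spread for every probe set, which cannot show how it performs on dim or noisy genes.

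Symbols came from the platform annotation, updated through a RefSeq gene table. Of 36701 probe sets 29131 had 1 symbol, 724 several and 6846 none, and those with several named no gene. Probe sets of gene families (Gbp, Ifitm, Oasl, Ifi204, Ms4a4b) may share signal with near-identical copies. The rule for named genes takes every gene of the set with a probe set of its own, with all sample values for called genes whose mean reached 200 in some population, and up to 5 called genes of each of the 3 further lists with the smallest adjusted p. Tlr3 and Gbp6 are named in addition. Members, lists and tests were chosen with earlier results of these data known. The replicate numbers were taken from the sample titles, which name no shared batch, and they were not treated as pairs.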

Additional observations from a re-analysis of the deposited data

How the results depend on the processing

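Each result was recomputed under up to 17 alternatives: the pseudocount, the filter, quantile normalization, median centring, no intensity trend, adjustment within each array type, the mean of a gene's probe sets, the 2 groups alone, the replicate number as a block, and the omission of each sample. Of 78 gene comparisons, 17 were called, 9 of these under every alternative that keeps all samples and 4 under every alternative, and none changed sign. Of the 61 uncalled ones, 5 were called under some alternative and 18 changed sign under some alternative. Median centring left 3 genes and 3 probe sets called in IKDC against PDC in place of 5 and 5, and it moved the median of all IKDC minus cDC differences to 0.12, against -0.01. Adjustment within each array type called 8 probe sets there. Omitting 1 sample gave 3 to 7 genes and 3 to 8 probe sets in IKDC against cDC, 2 to 5 genes and 2 to 6 probe sets in PDC against cDC, and 1 to 7 genes and 1 to 8 probe sets in IKDC against PDC. Over all probe sets it gave 593 to 1656, 327 to 719 and 493 to 869 calls in these comparisons. The deviations of same-numbered samples correlated at -0.0229 (IKDC and cDC), 0.0806 (PDC and cDC) and 0.0699 (IKDC and PDC) over the 23285 tested probe sets. A value over all probe sets cannot show whether same-numbered samples shared a preparation, and single genes can differ from it. Ifi47 was higher in replicate 2 than in replicate 1 in all 3 populations. With the replicate block 8, 5 and 7 genes were called, and 8 probe sets in IKDC against PDC, and over all probe sets 1650, 1055 and 1223. The cause of these shifts was not tested. Signals under 60, and under 122.7 on U74B or 148.7 on U74C, the highest unspiked controls, limit what dim genes can show.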
